A study of Sus scrofa with 10 samples.

Results

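The genes described here encode the route of glucose through the heart muscle: its uptake, glycolysis, the exchange of lactate, the control of pyruvate oxidation, and glycogen. They were chosen by name, as a list of 49 gene symbols, and 44 of them had a single row in the deposited table, which holds 12378 genes with a symbol and 3260 without one. SLC2A3, HKDC1, PFKFB1, SLC16A1 and MPC1 had no single row matched by symbol and are not analysed here. Expression was measured in right ventricular biopsies of 5 pigs modelling CTEPH, short for chronic thromboembolic pulmonary hypertension, and of 5 Sham pigs. In that disease clots that do not dissolve narrow the lung arteries, and the right ventricle pumps against a raised pressure. Each group has 5 RNA sequencing libraries, numbered s1, s3, s4, s5 and s9 in CTEPH, with s2, s6, s7, s8 and s10 in Sham. The labels say nothing of breed, sex, age, time after surgery or the way CTEPH was induced.

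The healthy adult heart draws most of its energy from fatty acids, and glucose reaches it mainly through the insulin-responsive transporter GLUT4. Glycolysis turns glucose into pyruvate, which is either reduced to lactate or carried into mitochondria, where the pyruvate dehydrogenase complex commits it to oxidation. Pyruvate dehydrogenase kinases switch that complex off and its phosphatases switch it on. Several steps are served by a muscle isoform and by a second isoform that is more general or more fetal, and a loaded heart is known for a shift towards glucose and towards the second kind.

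The values are deposited on a log2 scale, so that a difference of 1 is a doubling, and all libraries were brought to nearly the same distribution. They are not scaled by gene length, so levels are compared between libraries and not between genes. The relative depth that could be read back from low values was lowest in CTEPH library s9 (0.724) and highest in CTEPH library s4 (1.57), with the Sham libraries between. Of the cardiomyocyte markers 13 of 15 were measured, none was at a count of 0 in any library, and their summed log2 level was 21.66 to 21.94 in CTEPH and 21.45 to 21.90 in Sham libraries. The sum rests mostly on markers among the highest genes, to which the normalization assigns a value by rank. It therefore cannot show whether the share of cardiomyocytes was alike. Biopsies hold many cell types, so fewer cells of a type and less RNA per cell cannot be told apart in any value below.

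No gene of the route passed the test. With limma and Benjamini-Hochberg adjustment over all genes, 0 of 44 had an adjusted p under 0.05, where 4.62% of all genes did, 2.83% higher and 1.79% lower in CTEPH. The nearest was SLC2A4, at an adjusted p = 0.0533. At an unadjusted p under 0.05 there were 13 (29.5%), against 20.3% of all genes. Of these 13, the CTEPH mean was above the Sham mean for HK1, HK2, PFKP, PGAM1, ENO1, LDHA, LDHB and GYS1, and below it for SLC2A4, SLC2A12, PFKFB4, PGAM2 and LDHD. The groups overlapped for all 44 genes, whereas 6.57% of all genes had groups that did not overlap. Among the 44, 24 fold changes were positive (54.5%, against 46.4% of all genes), and the median log2 fold change was 0.07, against -0.03 over all genes. The median size of a fold change, sign ignored, was 0.34 for these genes and 0.25 for all genes on the log2 scale. All fold changes are CTEPH minus Sham and carry the standard error (SE) of the fit.

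**Figure D1:**
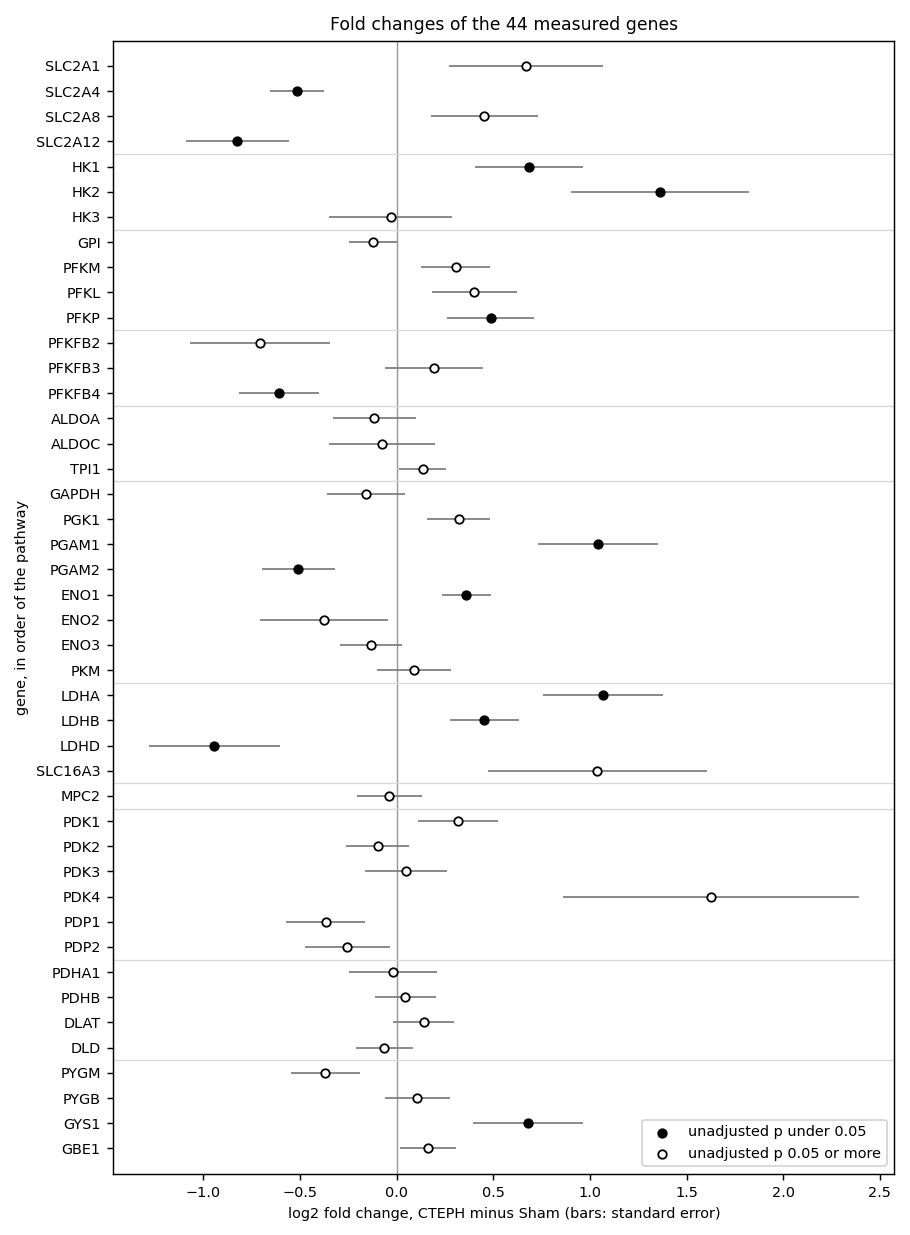
Log2 fold change (CTEPH minus Sham, x axis) of the 44 measured genes in the order of the pathway (y axis), with bars of 1 standard error and grey lines between steps. Filled points mark the 13 genes with an unadjusted p under 0.05. The largest positive values belong to PDK4 (1.63) and HK2 (1.36), and the PDK4 bar is the widest.

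The transporters that bring glucose into the cell had fold changes of both signs. SLC2A4, which encodes GLUT4, was at 13.48, 13.03, 13.15, 12.87 and 13.13 in CTEPH libraries s1, s3, s4, s5 and s9, against 13.79, 13.47, 13.77, 13.46 and 13.77 in Sham libraries s2, s6, s7, s8 and s10. Only the value of CTEPH library s1 reached into the Sham range, just above the lowest Sham value. The log2 fold change was -0.52 ± 0.14, or 0.698-fold (limma, Benjamini-Hochberg-adjusted p = 0.0533). Without CTEPH library s1 it was -0.61 and passed (limma, Benjamini-Hochberg-adjusted p = 0.0189). The adjusted p of SLC2A4 ranged from 0.0189 to 0.127 over the 10 refits that leave out 1 library (limma, Benjamini-Hochberg). On Sscrofa11.1 SLC2A4 spans bases 52628746 to 52634965 of chromosome 12.

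SLC2A12 encodes GLUT12, another transporter known in heart and muscle. It was at 7.65, 7.70, 7.45, 7.13 and 8.29 in the CTEPH libraries in the same order, against 9.02, 8.07, 7.92, 8.47 and 8.85 in the Sham libraries in theirs. CTEPH library s9 was the one CTEPH value inside the Sham range. It had a log2 fold change of -0.82 ± 0.27 (limma, Benjamini-Hochberg-adjusted p = 0.100), and it passed without CTEPH library s9, at -0.99 (adjusted p = 0.0440, same method). Its recovered counts were 77 to 145 in CTEPH and 89 to 312 in Sham libraries. Recovered counts, here and below, are not adjusted for depth. The adjusted p of SLC2A12 ranged from 0.0440 to 0.209 over the refits that leave out 1 library (limma, Benjamini-Hochberg).

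SLC2A1 encodes GLUT1, the basal transporter of many cell types, endothelium included. Its values were 9.09, 10.39, 10.85, 9.40 and 9.32 in CTEPH libraries, against 10.08, 8.57, 8.34, 8.88 and 9.83 in Sham libraries. CTEPH libraries s3 and s4 lay above every Sham library, and the other CTEPH libraries lay among them. Its log2 fold change of 0.67 ± 0.40 did not pass (limma, Benjamini-Hochberg-adjusted p = 0.377), and without CTEPH library s4 it was 0.41. SLC2A8, an intracellular sugar transporter, had a log2 fold change of 0.45 ± 0.28, with recovered counts of 30 to 179 in CTEPH and 34 to 85 in Sham libraries. Without CTEPH library s4 the SLC2A8 fold change was 0.28.

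Hexokinases trap glucose in the cell by phosphorylating it. HK1, the general mitochondria-bound form, was at 13.18, 14.61, 14.24, 14.33 and 13.30 in the CTEPH libraries, against 13.76, 13.25, 13.19, 12.73 and 13.29 in the Sham libraries. CTEPH libraries s3, s4 and s5 stood above every Sham library, while s1 and s9 lay inside the Sham range. Its log2 fold change was 0.69 ± 0.28 (limma, Benjamini-Hochberg-adjusted p = 0.185). HK2, the insulin-regulated muscle form, was at 8.75, 9.38, 10.05, 11.095 and 8.97 in CTEPH libraries and at 8.20, 7.17, 9.504, 8.06 and 8.51 in Sham libraries. Sham library s7 lay above CTEPH libraries s1, s3 and s9, and s4 and s5 exceeded it. The log2 fold change of HK2 was 1.36 ± 0.46, or 2.57-fold (limma, Benjamini-Hochberg-adjusted p = 0.115). HK3, a hexokinase known from leukocytes, differed by -0.03 ± 0.32.

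The phosphofructokinase step commits sugar to glycolysis, and the 3 subunit genes had positive fold changes of similar size. PFKM, the muscle subunit, was at 15.72, 15.39, 15.45 and 15.42 in CTEPH libraries s1, s3, s4 and s5, above the Sham range of 14.72 to 15.25, and at 14.76 in CTEPH library s9. Its log2 fold change was 0.30 ± 0.18 (limma, Benjamini-Hochberg-adjusted p = 0.368). PFKL, the liver-type subunit, differed by 0.40 ± 0.22, and by 0.24 without Sham library s8. PFKP, the platelet-type subunit, was at 9.90, 10.60, 10.70, 10.78 and 10.25 in CTEPH libraries, against 10.44, 9.95, 9.96, 9.29 and 10.15 in Sham libraries. For PFKL and PFKP alike, s3, s4 and s5 exceeded all Sham libraries and s1 and s9 did not. PFKP had a log2 fold change of 0.49 ± 0.22 (limma, Benjamini-Hochberg-adjusted p = 0.243), and 0.32 without Sham library s8. GPI, which forms fructose 6-phosphate just before this step, differed by -0.12 ± 0.12.

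The PFKFB enzymes make and break fructose 2,6-bisphosphate, the strongest activator of phosphofructokinase. PFKFB4 was at 10.09, 10.11, 10.23, 9.72 and 10.19 in CTEPH libraries, against 10.54, 10.84, 9.97, 11.24 and 10.79 in Sham libraries. Sham library s7 alone kept the groups from separating. PFKFB4 had a log2 fold change of -0.61 ± 0.21 (limma, Benjamini-Hochberg-adjusted p = 0.118), and it passed without Sham library s7, at -0.78 (adjusted p = 0.0347, same method). The adjusted p of PFKFB4 ranged from 0.0347 to 0.241 over the 10 refits that leave out 1 library (limma, Benjamini-Hochberg). PFKFB2, the heart isoform, was at 9.20 in CTEPH library s1, at 10.96 to 11.62 in the other CTEPH libraries and at 11.18 to 11.98 in Sham libraries. Its log2 fold change of -0.71 ± 0.36 was -0.30 without CTEPH library s1. PFKFB3, the inducible isoform known from hypoxic and dividing cells, was at 8.13, 8.13, 8.83, 7.45 and 7.65 in CTEPH libraries, against 7.53, 7.76, 7.96, 8.20 and 7.77 in Sham libraries. CTEPH library s4 was above and s5 below every Sham library, so the group difference of 0.19 ± 0.25 lay well within the spread.

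**Figure D2:**
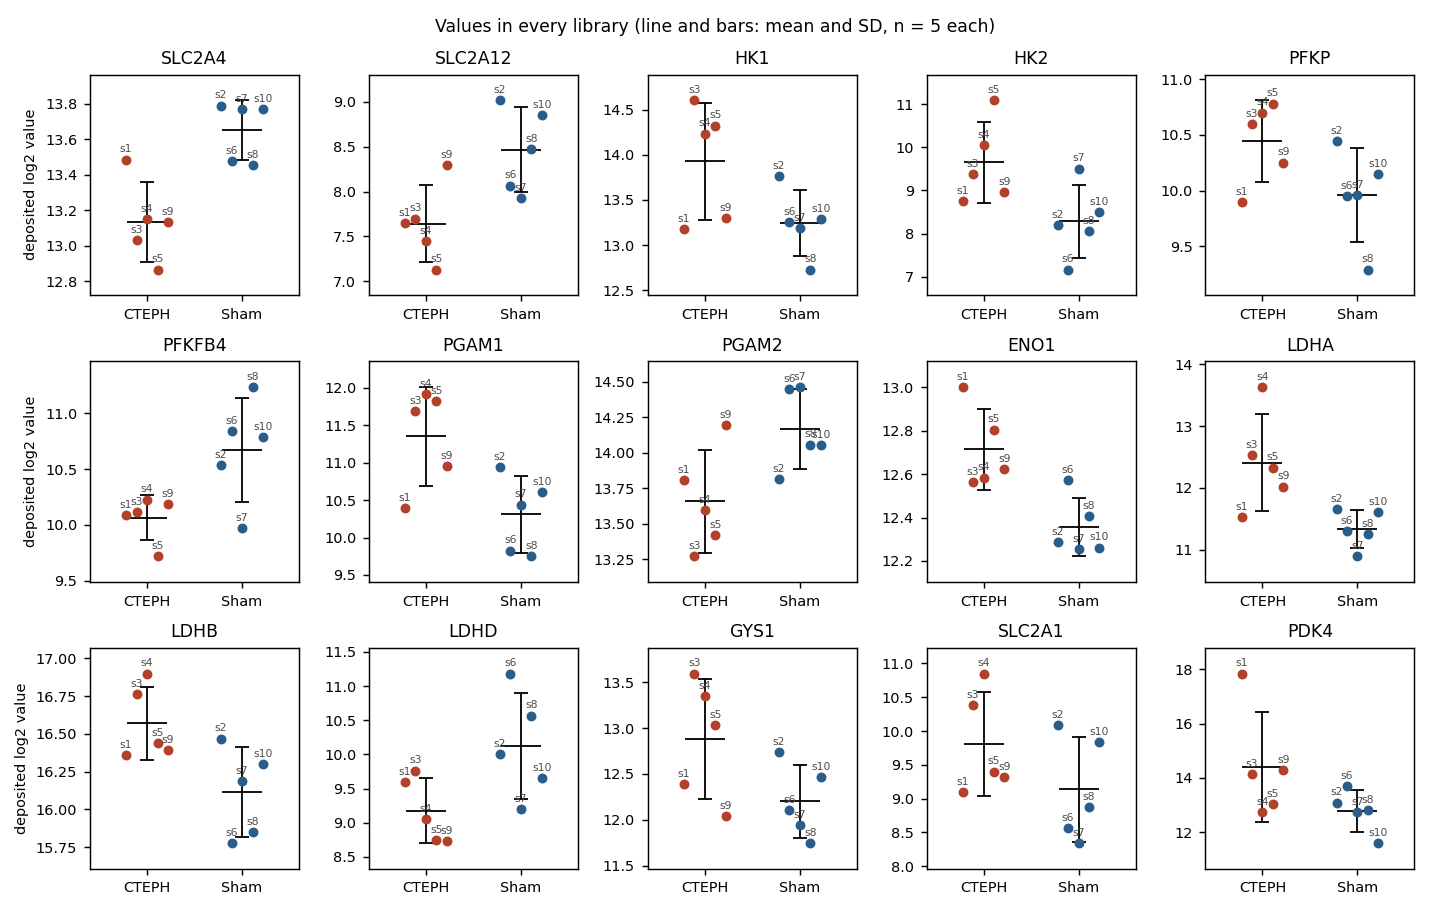
Deposited log2 values (y axis, own scale in each panel) of the 13 genes with an unadjusted p under 0.05, and of SLC2A1 and PDK4, in each CTEPH library (left) and each Sham library (right). Lines and bars give the mean and SD of 5 libraries. CTEPH libraries s1 and s9 often lie at Sham levels where s3, s4 and s5 do not, as for HK1, PFKP and GYS1, and PDK4 in s1 (17.84) stands far from all other libraries.

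From aldolase to triose phosphate, 0 of 3 genes had an unadjusted p under 0.05 by limma. Aldolase splits fructose 1,6-bisphosphate, and its muscle gene ALDOA and brain-type gene ALDOC differed by -0.12 ± 0.22 and -0.08 ± 0.27. TPI1, which interconverts the 2 triose phosphates, differed by 0.13 ± 0.12, with 14.87 to 15.02 in CTEPH and 14.63 to 15.02 in Sham libraries. GAPDH, the next enzyme and a common control gene, differed by -0.16 ± 0.20. It took 4 distinct values over the 10 libraries and the same value of 18.79 in 5 of them, because the normalization assigns the highest genes a value by rank. PGK1, which makes the first ATP of glycolysis, differed by 0.32 ± 0.16 (limma, Benjamini-Hochberg-adjusted p = 0.293), with CTEPH libraries s3, s4 and s5 above all Sham libraries.

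Phosphoglycerate mutase is served by a general gene, PGAM1, and a muscle gene, PGAM2, whose fold changes had opposite signs. PGAM1 was at 10.39, 11.69, 11.92, 11.82 and 10.96 in CTEPH libraries, against 10.94, 9.83, 10.44, 9.75 and 10.60 in Sham libraries. Only CTEPH library s1 lay within the Sham range. Its log2 fold change was 1.04 ± 0.31, or 2.06-fold (limma, Benjamini-Hochberg-adjusted p = 0.0750). It was 1.28 without CTEPH library s1 and then passed (limma, Benjamini-Hochberg-adjusted p = 0.0175). The adjusted p of PGAM1 ranged from 0.0175 to 0.171 over the 10 refits that leave out 1 library (limma, Benjamini-Hochberg). PGAM2 was at 13.81, 13.27, 13.60, 13.42 and 14.20 in CTEPH libraries, against 13.82, 14.45, 14.46, 14.06 and 14.05 in Sham libraries. Here CTEPH library s9 was the one inside the Sham range, with s1 just below the lowest Sham value. PGAM2 had a log2 fold change of -0.51 ± 0.19 (limma, Benjamini-Hochberg-adjusted p = 0.148), and without CTEPH library s9 it passed at -0.64 (adjusted p = 0.0441, same method). For PGAM2 the adjusted p ranged from 0.0441 to 0.287 over the 10 refits (limma, Benjamini-Hochberg). PGAM1 lies on chromosome 14 from 108822782 to 108832818 and PGAM2 on chromosome 18 from 48693832 to 48712787.

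Enolase follows, with the general gene ENO1 and the muscle gene ENO3. ENO1 was at 13.00, 12.56, 12.58, 12.80 and 12.62 in CTEPH libraries, against 12.29, 12.57, 12.25, 12.41 and 12.26 in Sham libraries. The groups met at a single point, where Sham library s6 slightly exceeded CTEPH library s3. ENO1 had a log2 fold change of 0.36 ± 0.13, a small difference of 1.28-fold (limma, Benjamini-Hochberg-adjusted p = 0.130). ENO3 differed by -0.13 ± 0.16. The neuronal gene ENO2 was scarce, with recovered counts of 8 to 29 in CTEPH and 15 to 36 in Sham libraries, and differed by -0.38 ± 0.33, or by -0.21 without CTEPH library s9. PKM, which makes pyruvate, was at 15.62, 16.10, 16.21, 15.89 and 15.49 in CTEPH libraries, against 16.12, 15.85, 15.62, 15.30 and 15.98 in Sham libraries. Those ranges lay nearly on top of each other, with a log2 fold change of 0.09 ± 0.19. The PKM row sums its splice forms, so the fetal and adult forms are not told apart.

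Lactate dehydrogenase joins pyruvate and lactate, with LDHA known as the form of fast muscle and hypoxic cells and LDHB as the form of the heart. LDHA was at 11.53, 12.53, 13.63, 12.33 and 12.02 in CTEPH libraries, against 11.65, 11.30, 10.89, 11.25 and 11.61 in Sham libraries. CTEPH library s1 alone lay inside the Sham range, and s4 was the highest. Its log2 fold change was 1.07 ± 0.31, or 2.10-fold (limma, Benjamini-Hochberg-adjusted p = 0.0708). It passed at 1.29 without CTEPH library s1 (adjusted p = 0.0210, same method) and was 0.76 without CTEPH library s4. LDHA lies on chromosome 2 from 40814163 to 40827284.

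LDHB was at 16.36, 16.76, 16.90, 16.44 and 16.39 in CTEPH libraries, against 16.47, 15.78, 16.18, 15.85 and 16.30 in Sham libraries. CTEPH libraries s3 and s4 exceeded every Sham library, and the other 3 did not exceed Sham library s2. The log2 fold change of 0.45 ± 0.18 did not pass (limma, Benjamini-Hochberg-adjusted p = 0.171). LDHD, the mitochondrial enzyme that oxidizes D-lactate, was at 9.60, 9.77, 9.05, 8.75 and 8.73 in CTEPH libraries, against 10.01, 11.18, 9.20, 10.57 and 9.66 in Sham libraries. CTEPH libraries s4, s5 and s9 were below all Sham libraries, and the log2 fold change was -0.94 ± 0.34 (limma, Benjamini-Hochberg-adjusted p = 0.136). SLC16A3 encodes MCT4, the lactate exporter of glycolytic cells. It had recovered counts of 63, 144, 381, 158 and 20 in CTEPH libraries, against 115, 75, 20, 67 and 18 in Sham libraries. Those counts are not adjusted for depth, and the log2 values of SLC16A3 were 5.83 to 8.91 in CTEPH and 5.47 to 7.64 in Sham libraries. Both groups were spread widely, and its log2 fold change was 1.04 ± 0.57 (limma, Benjamini-Hochberg-adjusted p = 0.330).

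At the entry of pyruvate into mitochondria each difference was smaller than its standard error. MPC2, a subunit of the mitochondrial pyruvate carrier, differed by -0.04 ± 0.17. The 4 subunit genes of the pyruvate dehydrogenase complex had log2 fold changes from -0.06 to 0.14. They were PDHA1 and PDHB of the E1 enzyme, at -0.02 ± 0.23 and 0.05 ± 0.16, DLAT of E2 at 0.14 ± 0.16, and DLD of E3 at -0.06 ± 0.15. The widest 95% confidence interval of the 4 was that of PDHA1, from -0.51 to 0.47, and the narrowest was that of DLD, from -0.38 to 0.25, so differences of that size are not excluded.

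Among the kinases that inhibit the complex, PDK4, the form known to follow fasting and fatty acid supply, had the largest fold change and the largest spread. It was at 17.84, 14.13, 12.75, 13.04 and 14.29 in CTEPH libraries, against 13.09, 13.69, 12.75, 12.80 and 11.59 in Sham libraries. CTEPH libraries s1, s3 and s9 exceeded every Sham library, and s4 and s5 did not. Group means were 14.41 (SD 2.03) in the 5 CTEPH libraries and 12.78 (SD 0.77) in the 5 Sham libraries. The log2 fold change of 1.63 ± 0.77 (limma, Benjamini-Hochberg-adjusted p = 0.254) was 0.77 without CTEPH library s1. The other kinases PDK1, PDK2 and PDK3 differed by 0.32 ± 0.21, -0.10 ± 0.16 and 0.05 ± 0.21, and PDK1 by 0.11 without Sham library s8. PDP1 and PDP2, the phosphatases that reactivate the complex, differed by -0.37 ± 0.20 and -0.26 ± 0.22, and PDP1 by -0.19 without CTEPH library s1. PDP2 differed by -0.15 without CTEPH library s4 and by -0.41 without Sham library s6.

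Of the 4 glycogen genes among the 44, the synthase had the largest difference. GYS1, muscle glycogen synthase, was at 12.39, 13.59, 13.35, 13.03 and 12.04 in CTEPH libraries, against 12.74, 12.11, 11.94, 11.74 and 12.47 in Sham libraries. Once more CTEPH libraries s3, s4 and s5 exceeded all Sham libraries and s1 and s9 lay among them. GYS1 had a log2 fold change of 0.68 ± 0.28 (limma, Benjamini-Hochberg-adjusted p = 0.199). PYGM, muscle glycogen phosphorylase, differed by -0.37 ± 0.18 and by -0.22 without CTEPH library s1. PYGB, the brain-type phosphorylase that the heart also carries, differed by 0.11 ± 0.17, and the branching enzyme gene GBE1 by 0.16 ± 0.14.

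The CTEPH libraries differed from each other in how many of these genes left the Sham range. Of the 13 genes with an unadjusted p under 0.05, the value lay beyond all Sham libraries, on the side of the group difference, for 12 in s4, 12 in s5 and 9 in s3, but for 5 in s9 and 3 in s1. Those 13 were picked by the same values, so these counts only describe them. Over all 44 genes the count beyond the Sham range on either side was 26 in s4 (59.1%), 23 in s5 (52.3%), 18 in s3 (40.9%), 13 in s9 (29.5%) and 10 in s1 (22.7%). The same share over all genes of the table was nearly equal in the 5 libraries, at 50.9% in s4, 50.9% in s5, 50.2% in s3, 49.8% in s9 and 49.0% in s1. So s5 lay close to the share of all genes, s4 lay above it, and s3, s9 and s1 lay below it for these genes. In s1 these included the highest PDK4 and ENO1 values and the lowest PFKFB2, PYGM, PDP1 and PDK3 values of the 10 libraries. The SD within CTEPH was larger than within Sham for 20 of the 44 genes (45.5%), against 69.6% of all genes. Relative depth was 1.57 in s4, 1.07 in s5, 0.924 in s3, 0.724 in s9 and 0.975 in s1, and its part in these counts was not tested.

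**Figure D3:**
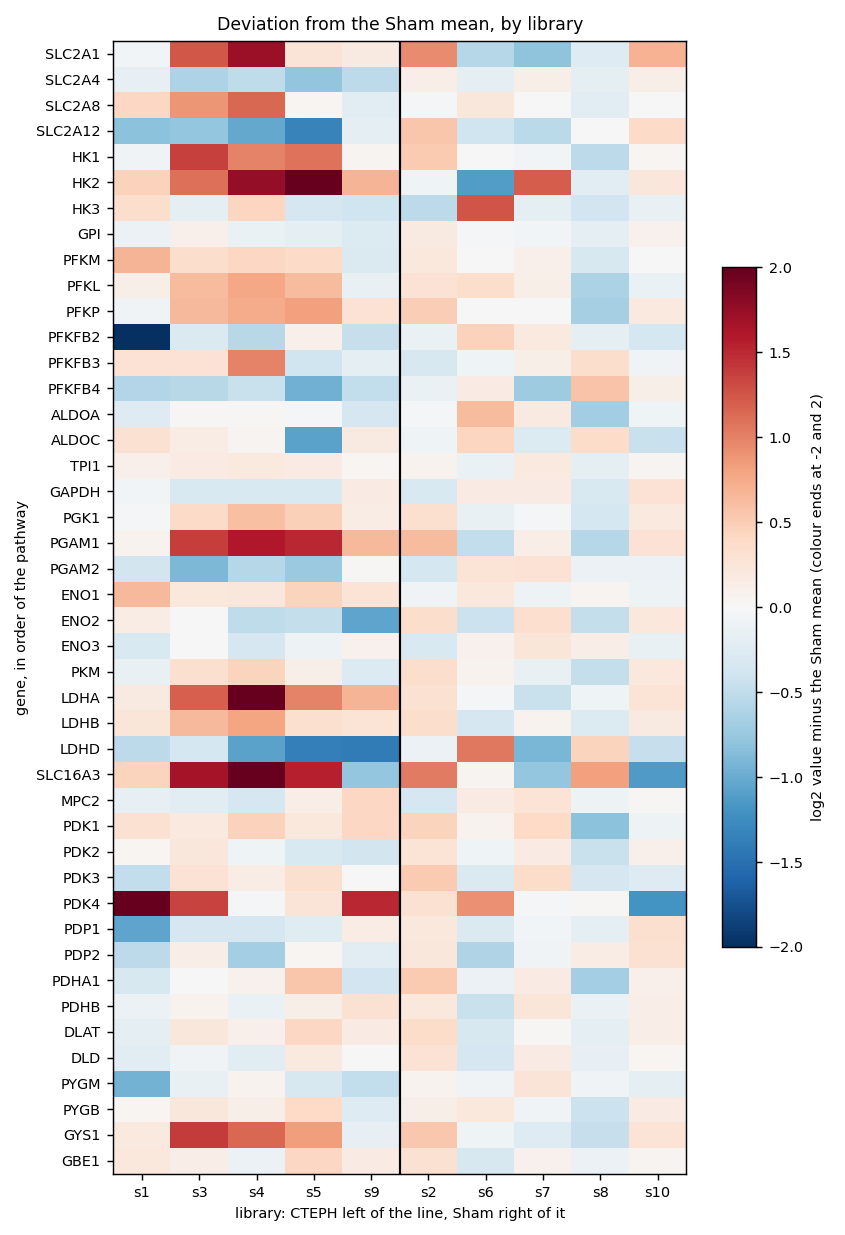
Log2 value minus the Sham mean, in colour, for each of the 44 genes (rows, in the order of the pathway) and each library (columns, CTEPH left of the line and Sham right of it). Red is above and blue below the Sham mean, and the colours end at -2 and 2. Libraries s3, s4 and s5 share red cells at HK1, HK2, PGAM1, LDHA, SLC16A3 and GYS1, while s1 differs from them most at PDK4 and PFKFB2.

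Paired genes were set against each other within each library, which cancels anything that moves both alike. The log2 difference PGAM1 minus PGAM2 was -3.42, -1.58, -1.68, -1.60 and -3.24 in the CTEPH libraries, against -2.87, -4.62, -4.02, -4.31 and -3.45 in the Sham libraries. It was near -1.6 in s3, s4 and s5, above every Sham library, and within the Sham range in s1 and s9. Its mean was 1.55 higher in CTEPH. SLC2A1 minus SLC2A4 averaged -3.32 ± 0.85 in CTEPH and -4.51 ± 0.70 in Sham libraries (SD over 5). LDHA minus LDHB averaged -4.16 ± 0.57 in CTEPH and -4.78 ± 0.31 in Sham libraries. For ENO1 minus ENO3 the means were -3.99 ± 0.31 in CTEPH and -4.48 ± 0.22 in Sham libraries. For PYGB minus PYGM they were 2.44 ± 0.38 in CTEPH and 1.96 ± 0.34 in Sham libraries. In all of these pairs the balance leaned to the first gene in CTEPH on average. HK1 minus HK2 leaned the other way, at 4.28 ± 0.71 in CTEPH and 4.96 ± 0.92 in Sham libraries. The CTEPH mean was 0.18 higher for PFKP minus PFKM, 0.10 higher for PFKL minus PFKM and 0.04 higher for ALDOC minus ALDOA. For PFKFB3 minus PFKFB2 it was 0.90 higher, and for PDK4 minus PDK2 1.72 higher. All 11 pairs measured had overlapping groups, and none was tested.

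**Figure D4:**
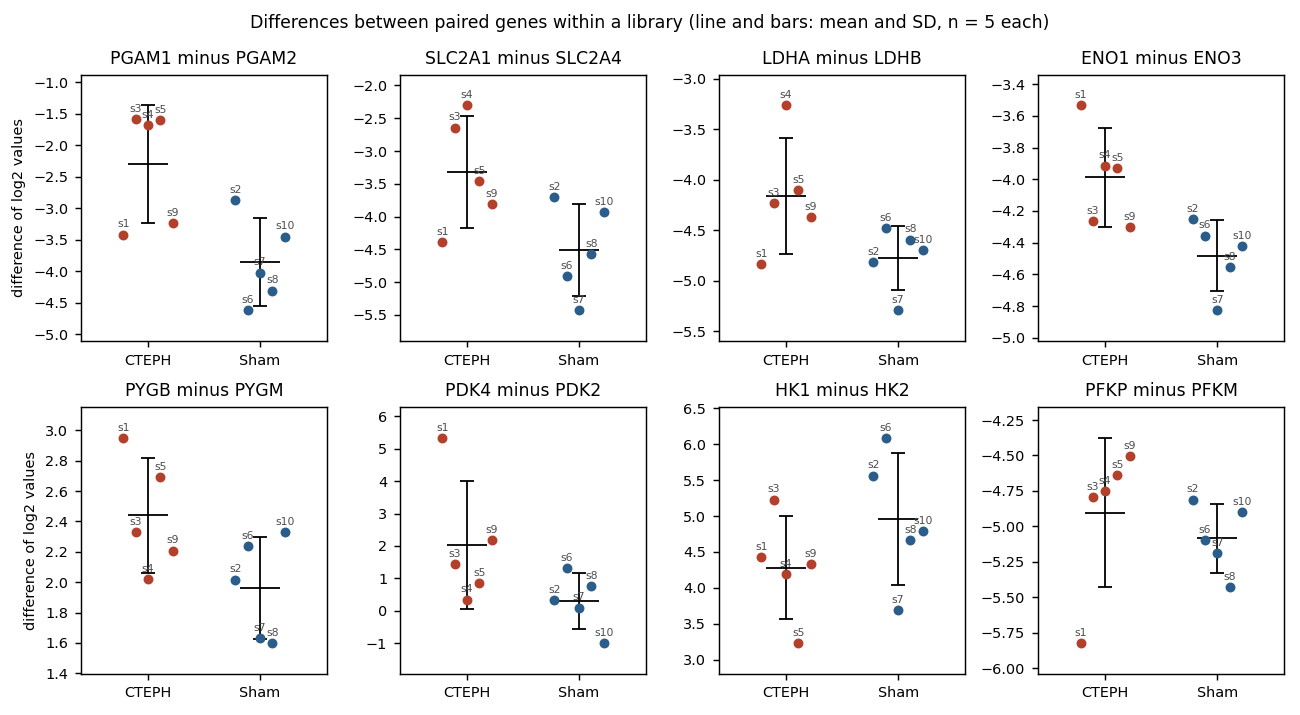
Difference between the log2 values of 2 genes within a library (y axis, own scale in each panel) for 8 of the 11 pairs, in CTEPH (left) and Sham libraries (right), with mean and SD of 5 libraries. For PGAM1 minus PGAM2, CTEPH libraries s3, s4 and s5 lie near -1.6, above the highest Sham value of -2.87, and every pair shows overlapping groups.

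Further genes of glucose use were listed by role. Of 85 measured genes in 7 lists 1 was higher and 0 lower in CTEPH by limma with Benjamini-Hochberg adjustment (1.18%, against 4.62% of all genes). An unadjusted p under 0.05 was found for 15 (17.6%, against 20.3% of all genes), and the median log2 fold change was 0.01. Both shares were below those of all genes. The gene that rose was GYG1, glycogenin, the protein primer on which glycogen is built. It was at 13.42, 14.28, 14.71, 14.38 and 13.76 in CTEPH libraries, against 13.44, 13.00, 13.23, 12.95 and 13.42 in Sham libraries. All CTEPH libraries but s1 exceeded every Sham library, and the log2 fold change was 0.90 ± 0.22 (limma, Benjamini-Hochberg-adjusted p = 0.0349). The call held in 2 of the 10 refits that leave out 1 library, those without CTEPH library s1 or s9, and the adjusted p ranged from 0.0076 to 0.0886 over the 10 (limma, Benjamini-Hochberg).

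By list, GYG1 was the 1 called gene of 18 other glycogen genes. The counts were 0 of 12 other transporters and glycolytic isoforms, 0 of 8 other lactate and pyruvate genes, 0 of 7 pentose phosphate genes, 0 of 10 NADH shuttle genes, 0 of 10 hexosamine and polyol genes and 0 of 20 regulators, with 3, 3, 0, 1, 2 and 2 at an unadjusted p under 0.05 (limma). OGA, which removes the sugar tag O-GlcNAc from proteins, was the 1 gene of the 85 whose groups did not overlap (1.18%, against 6.57% of all genes). It was at 12.13 to 12.90 in CTEPH and 12.95 to 13.54 in Sham libraries, a log2 fold change of -0.53 ± 0.17 (limma, Benjamini-Hochberg-adjusted p = 0.102). OGT, which adds that tag, differed by -0.80 ± 0.27 (limma, Benjamini-Hochberg-adjusted p = 0.113). Of the 20 regulators, those at an unadjusted p under 0.05 were AKT2, a kinase of insulin signalling, at -0.29 ± 0.12, and IRS2, an adaptor of the insulin receptor, at -0.47 ± 0.21, and neither passed the adjustment. HIF1A, the oxygen-regulated activator of many glycolytic genes, differed by 0.30 ± 0.15, and MYC, another activator, by 0.53 ± 0.43, both above an unadjusted p of 0.05. The median log2 fold change of the 20 was -0.0054.

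Some markers of other cells differed between the groups, and their part in the values above was not tested. Summed levels separated the groups for the cell division and skeletal muscle lists and overlapped for the other lists. All 13 measured cell division markers rose (limma, Benjamini-Hochberg), with a summed log2 level of 12.34 to 13.62 in CTEPH and 10.83 to 11.21 in Sham libraries. Of 12 macrophage markers 3 rose, TREM2, SPP1 and LYZ, and the summed level was 13.52 to 14.68 in CTEPH and 13.12 to 13.99 in Sham libraries. CD68 had a negative log2 fold change of -0.50 ± 0.20 that did not pass. CSF1R and CD14 differed by 0.03 ± 0.20 and 0.13 ± 0.27. Of 11 endothelial markers 2 fell, FLT1 and TEK, with a summed level of 15.00 to 15.36 in CTEPH and 15.19 to 15.97 in Sham libraries. The summed level of 8 skeletal muscle markers was 15.80 to 16.55 in CTEPH and 14.92 to 15.56 in Sham libraries. Among them TNNT1 and CKMT2 rose, while MYBPC2 and ACTN3 had negative log2 fold changes of -1.37 ± 0.45 and -1.47 ± 0.59 that did not pass. CKMT2, a mitochondrial creatine kinase that heart muscle also makes, had the highest level of the 8 and so weighs most in the sum. Among 11 fibroblast markers limma called 0, with 3 at an unadjusted p below 0.05, and the summed level was 17.02 to 18.08 in CTEPH and 17.07 to 17.81 in Sham libraries. Smooth muscle and pericyte markers were at 14.86 to 15.88 in CTEPH and 15.11 to 15.45 in Sham libraries, with CNN1 rising among 10. MCAM and KCNJ8 had positive log2 fold changes of 0.89 ± 0.27 and 0.43 ± 0.18 that did not pass. RGS5 and PDGFRB had negative ones of -0.61 ± 0.26 and -0.54 ± 0.19 that did not pass either. Adipocyte markers were at 13.08 to 14.01 in CTEPH and 13.01 to 13.92 in Sham libraries. Among 5 of them CIDEA fell, while FABP4 differed by 0.44 ± 0.21 and did not pass. Blood cells were poorly covered, with 2 of 7 erythroid and 1 of 7 neutrophil markers measured. Limma called 0 of these, and 0 erythroid and 1 neutrophil marker had an unadjusted p below 0.05. Of the cardiomyocyte markers, MYL2 rose and the other 12 did not pass. CKM and MYBPC3 among them had negative log2 fold changes of -0.62 ± 0.21 and -0.54 ± 0.23, at an unadjusted p under 0.05 (limma). No measured marker was at a count of 0 in any library.

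In the pig genome (Sscrofa11.1, RefSeq positions matched by symbol) 43 of the 44 genes had a single position, and LDHB did not. ENO2 and TPI1 lie 30 kb apart on chromosome 5 and GAPDH 287 kb beyond, with fold changes of -0.38, 0.13 and -0.16. ENO3 lies 669 kb from SLC2A4 on chromosome 12. PGK1, PDK3 and PDHA1 are on the X chromosome, and the labels do not give the sex of the pigs. ALDOA, GAPDH, PGAM1, ENO1, PKM, LDHA and LDHB belong to families with close relatives or processed copies in mammalian genomes, and no source used here states how the authors treated reads shared between copies, so their values are uncertain to that extent.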

How the data were processed

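Right ventricular RNA of 10 pigs was sequenced, 1 library per pig, with library and group taken from the labels. Per the submitters' processing notes, bcl2fastq 2.18.12, cutadapt 1.15, FastQC 0.11.5, featureCounts, edgeR 3.36.0, limma 3.50.0 and the build Sscrofa11.1 were used. The sources used here do not name the aligner, annotation, strand setting or low-count filter, and the labels name both polyA RNA and a total RNA kit. Values in the deposited table are log2 values that share 1 distribution over the libraries, that is, quantile-normalized by the authors, so a change common to most genes cannot appear. Below a log2 value of 9.48 the values could be read back as whole counts, up to a common factor of 2 (tolerance 1e-06, 52.8% of values), which gave relative depth over genes with at least 5 counts in each library. Totals per library and the depth behind higher values are unknown, and counts carry counting error besides.

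Ensembl identifiers were matched to symbols for 12378 genes and left unmatched for 3260. A symbol carried by several rows was not used for members, lists or pairs, and such a gene is counted as not measured. The comparison of CTEPH with Sham used limma 3.58.1 under R 4.3.3 (intensity trend, no covariate, two-sided) over all genes of the table, with Benjamini-Hochberg adjustment. A gene is called at an adjusted p under 0.05. The fit was tested on simulated data. No number pairs the libraries. The labels name 5 pigs in each group and 1 library for each. The members, lists and pairs were chosen with earlier results of these data known. All 44 measured members are named, and values in every library are given for members with an unadjusted p under 0.05 and for PDK4, SLC2A1, PFKFB3 and PKM. A planned search of promoters was not run, and no sequences are shown. The alternatives were other variance priors, library weights, a filter on the lowest 25% of genes, other centrings and leaving out each library. All columns were mapped.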

Additional observations from a re-analysis of the deposited data

Results flagged for a closer look

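A library was set apart from the other 4 of its group by Dixon's test in 4 of the 88 combinations of gene and group, about the number that chance gives at a rate of 1 in 20. HK3 was at 9.55 in Sham library s6, against 7.76 to 8.15 in the other Sham libraries. PFKFB2 was at 9.20 in CTEPH library s1, against 10.96 to 11.62 in the other CTEPH libraries. PFKFB4 was at 9.72 in CTEPH library s5, against 10.09 to 10.23 in the others, and ALDOC was at 7.55 in the same library, against 8.68 to 8.92. PDK4 at 17.84 in CTEPH library s1 did not pass the same test, with 12.75 to 14.29 in the other CTEPH libraries.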

How the results depend on the processing

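The count of genes called over the whole table, 723, was 1269 with library weights and 401 to 961 over the 10 refits that each left out 1 library. It differed by over 1.5 times without CTEPH library s4 (401) or s5 (475) and without Sham library s2 (475), s6 (425), s7 (462) or s10 (417). The count of called genes of the route, 0, was 5 with library weights (LDHA, HK1, PGAM1, SLC2A4 and PGAM2) and 0 to 3 over the refits. It was 3 without CTEPH library s1 (LDHA, PGAM1 and SLC2A4), 2 without CTEPH library s9 (SLC2A12 and PGAM2) and 1 without Sham library s7 (PFKFB4). For each of these genes the library left out lay inside the range of the other group, so a larger difference follows from the choice. Centring on cardiomyocyte markers, which shifted the median of all genes by 0.046, called LDHA and PGAM1. Those 7 genes kept their direction in every alternative. The genes at an unadjusted p under 0.05, 13, numbered 9 to 18. GYG1 was not called without an intensity trend (limma, Benjamini-Hochberg-adjusted p = 0.0674).

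The sign of the log2 fold change held in all 16 alternatives for 34 of the 44 genes, where a value was obtained. The other 10 had fold changes of at most 0.193 in size. With library weights HK3, ALDOC and PDHB were at 0.0050, 0.0111 and -0.0127, and centred on cardiomyocyte markers HK3, MPC2 and PDHA1 were at 0.0143, 0.0084 and 0.0273. Over the refits without 1 library the ranges were -0.1643 to 0.2814 for HK3, -0.0055 to 0.3408 for PFKFB3, -0.2910 to 0.0431 for ALDOA, -0.1883 to 0.1743 for ALDOC, -0.0300 to 0.1798 for PKM, -0.1495 to 0.0387 for MPC2, -0.0323 to 0.1851 for PDK3, -0.1889 to 0.1129 for PDHA1, -0.0670 to 0.1050 for PDHB and -0.1482 to 0.0061 for DLD.

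The number of libraries, 5 in each group, limits the precision of every value. No paired analysis was possible because each library number occurs once.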

Other observations

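CTEPH library s1 also stood apart in genes of fuel use outside the route. TBC1D4, which holds GLUT4 vesicles back until insulin signals, was at 14.28 in s1, at 11.35 to 11.85 in the other CTEPH libraries and at 11.38 to 11.77 in Sham libraries. PPP1R3C, which targets a phosphatase to glycogen, was at 11.78 in s1, at 14.07 to 15.06 in the other CTEPH libraries and at 14.20 to 15.16 in Sham libraries. TXNIP, known to restrain glucose uptake, was at 16.25 in s1, the highest of the 10 libraries. It was at 14.115 to 15.02 in the other CTEPH libraries and at 14.36 to 15.80 in Sham libraries, so s1 stood less apart here. These genes were picked after their values were seen, and the cause was not tested.

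SLC16A8, a monocarboxylate transporter gene of low level, was at 6.21, 4.87, 5.25, 4.50 and 6.98 in CTEPH libraries, against 7.04, 6.59, 6.84, 6.84 and 6.92 in Sham libraries. CTEPH library s9 alone lay inside the Sham range, and the log2 fold change was -1.29 ± 0.42 (limma, Benjamini-Hochberg-adjusted p = 0.101).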
